A study of Mus musculus with 8 samples.

Results

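The 10 genes of extracellular proteolysis described here are the matrix metalloproteinases Mmp7, Mmp9, Mmp10, Mmp12, Mmp13, Mmp14 and Mmp15 and the tissue inhibitors of metalloproteinases Timp1, Timp2 and Timp3. They were picked by symbol from 52636 gene IDs in 8 mixed co-cultures, with their levels in the 2 groups already known. Differences between the groups are therefore given for them as a description, with no test. Of the co-cultures, 4 held trogocytic colon cancer cells and 4, the controls, held non-trogocytic ones. Trogocytosis is the transfer of membrane fragments, with the proteins they carry, between cells in contact. In all 8, C57BL/6 splenocytes, which the labels describe as syngeneic and taken from Actin-GFP reporter mice, were mixed with cancer cells at 50 splenocytes to 1 cancer cell and kept together for 5 days. The cancer cells came from liver metastases that formed after tdTomato-carrying colon cancer organoids were injected into the spleen, and they were sorted on tdTomato and CD4 protein. The labels give no ages of the animals and do not state whether the 4 replicates of a group came from separate animals or cultures, so p-values below measure the spread between these libraries. The RNA came from the whole mixture, so fewer cells of a type and less RNA per cell cannot be told apart.

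Matrix metalloproteinases are zinc enzymes that are made as inactive precursors and cut collagens, laminins, elastin and many cell-surface and soluble proteins once their propeptide is removed. Most are secreted, while Mmp14 and Mmp15 are held in the plasma membrane. TIMPs bind the active site of the enzymes in a complex of equal numbers of molecules. In the gut, Mmp7 (matrilysin) is known as an epithelial enzyme, including in intestinal tumours, and Mmp12 (metalloelastase) as an enzyme of macrophages.

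Depth was 1.39 to 1.84 Gb of aligned sequence per library, and in each 10867 to 12362 genes stood at 1 TPM or more (a level scaled for transcript length and to the same total in every library). Both labelled cell sources were present. Summed markers of colon epithelium lay between 5459 and 7149 TPM in trogocytic and between 3383 and 9293 TPM in non-trogocytic co-cultures. T cell markers summed to 597 to 1679 TPM in trogocytic and 323 to 1096 TPM in non-trogocytic co-cultures. Only non-trogocytic replicate 3 held hepatocyte markers: they summed to 159.7 TPM there, led by Apoa1 and Alb, and were listed at 0 in the other 7 libraries. Fibroblast markers summed to 8.96, 1.44, 2.25 and 8.22 TPM in trogocytic co-cultures, against 9.18, 19.6, 44.0 and 0.812 TPM in non-trogocytic ones. In trogocytic co-cultures these sums were nearly all Thy1, which T cells also express, and 8 of the 10 fibroblast markers were listed at 0 in all 4 of those libraries. Pdgfrb and Fap were listed at 0 in every library. Mitochondrial transcripts summed to 5130 to 10284 TPM in trogocytic and 2884 to 9550 TPM in non-trogocytic co-cultures, and all 9 of them had a log2 difference above 0. The part of library makeup in the differences described next was not tested.

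Mmp12, Mmp10, Mmp13 and Mmp7 belong to 1 gene cluster. On chromosome 9 of GRCm38, 10 metalloproteinase genes lie within 427 kb, between positions 7272514 and 7699585, in the order Mmp13, Mmp12, Mmp1b, Mmp3, Mmp1a, Mmp10, Mmp8, Mmp27, Mmp20 and Mmp7. For each of the 4 genes, the sequence before the RefSeq start that held the AP-1 motif is shown. These neighbours had very unequal levels, and 3 of the 4 stretches also held a TATA box. Each line gives the 100 bases before a RefSeq start on the plus strand of GRCm38.p6, 5′ to 3′, with matches to TGANTCA (the AP-1 motif) and TATAAA (the TATA box) in capitals.
Mmp13: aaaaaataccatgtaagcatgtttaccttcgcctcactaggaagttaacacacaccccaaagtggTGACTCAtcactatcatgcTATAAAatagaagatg
Mmp12: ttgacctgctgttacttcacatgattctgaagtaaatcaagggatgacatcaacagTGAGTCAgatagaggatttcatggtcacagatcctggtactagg
Mmp10: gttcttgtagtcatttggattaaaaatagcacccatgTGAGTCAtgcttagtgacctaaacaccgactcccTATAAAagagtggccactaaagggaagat
Mmp7: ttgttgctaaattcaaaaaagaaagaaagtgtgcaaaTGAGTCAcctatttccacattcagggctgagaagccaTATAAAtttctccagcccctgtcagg
These stretches are chr9:7272414-7272513 for Mmp13, chr9:7347274-7347373 for Mmp12, chr9:7502242-7502341 for Mmp10 and chr9:7691990-7692089 for Mmp7. Mmp12 and Mmp7 each have a second RefSeq start whose window held neither of these motifs. For Mmp12 that second window, with the stretch chr9:7344297-7344396, is the one at the first bases of the gene, which begins at 7344381. The Mmp12 stretch printed above lies inside the gene. Searched on both strands over the 250 bases before the start, the AP-1 letters were found for 8 of the 10 cluster genes, at 1 or more starts. Counted per window, they were found in 6.75% of 32851 promoter windows of the same length. TATAAA was found for 7 of the 10 cluster genes and in 12.4% of all windows. The 5 members outside the cluster with an entry (Mmp14, Mmp15, Timp1, Timp2 and Timp3) had no match to the AP-1 or TATA letters, and all 5 held the GC box letters GGGCGG, which 32.7% of all windows hold and none of the cluster genes did. Matches of different motifs did not overlap in the members' windows. A match describes letters only.

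Mmp12, a secreted elastase best known from macrophages, had 47.0, 9.74, 3.89 and 10.9 TPM in trogocytic co-cultures, against 232, 148, 191 and 54.6 TPM in non-trogocytic co-cultures. Every trogocytic library stood below every non-trogocytic library, and Mmp12 was the only one of the 10 genes whose groups did not overlap. Groups did not overlap for 2.68% of all 11433 genes tested, but since Mmp12 was chosen on these values nothing is read from that share. The highest trogocytic value, 47.0 TPM in replicate 1, was close to the lowest non-trogocytic value, 54.6 TPM in replicate 4. The mean was 17.9 ± 19.6 TPM in trogocytic and 157 ± 76.2 TPM in non-trogocytic co-cultures (SD, n = 4 each), a ratio of 0.114. On the log2(TPM + 1) scale the difference was −3.40 (SE 0.82 from the 4 libraries of each group), and −3.24 without non-trogocytic replicate 3. The gene (ENSMUSG00000049723.14) runs from 7344381 to 7369499 on the plus strand of chromosome 9. It overlaps Mmp1b on the other strand, which was listed at 0 in every library.

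Mmp7, the matrilysin of epithelia, had 25.9, 82.1, 75.8 and 60.5 TPM in trogocytic and 26.1, 131.1, 208 and 249 TPM in non-trogocytic co-cultures. Replicate 1 was the lowest library in both groups, and its 2 values nearly coincided, so the groups overlapped although the other 3 trogocytic values lay below the other 3 non-trogocytic ones. Means were 61.1 ± 25.2 TPM in trogocytic and 153 ± 97.8 TPM in non-trogocytic co-cultures (SD, n = 4 each). The log2 difference of −1.04 (SE 0.82) depended on single libraries: with trogocytic replicate 1 left out it was −0.67. With non-trogocytic replicate 1, 3 or 4 left out it was −1.74, −0.76 and −0.67 in that order. About 80.7 to 328 read pairs lay behind the Mmp7 level in trogocytic and 118 to 909 in non-trogocytic libraries. The gene (ENSMUSG00000018623.9, 7692090 to 7699585, plus strand) overlaps AV064505 on the other strand, which had 0.519 to 6.72 TPM. Reads from such a pair cannot be told apart where strand was not used in the counting.

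Mmp10 (stromelysin-2), an enzyme with a broad range of matrix substrates, was listed at 0 in trogocytic replicates 1 to 3 and had 2.04 TPM in replicate 4. In non-trogocytic co-cultures it was listed at 0 in replicate 1 and had 3.97, 14.1 and 2.46 TPM in replicates 2, 3 and 4. The groups overlapped, and the highest value came from the library that also held hepatocyte marker transcripts. The log2 difference of −1.60 (SE 0.90) was −0.97 without it. These levels rest on few reads: about 11.1 read pairs in the trogocytic library, and 24.4, 99.3 and 14.4 in the 3 non-trogocytic libraries above 0. In the 4 libraries listed at 0, 3 read pairs would have given 0.412 to 0.598 TPM, a limit that covers counting error only. The gene (ENSMUSG00000047562.3) lies at 7502352 to 7510240 on the plus strand of chromosome 9.

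Mmp13 and Mmp9 were close to the limit of detection. Mmp13 (collagenase-3) was listed at 0 in 7 libraries and had 0.126 TPM in non-trogocytic replicate 3, which corresponds to about 1.38 read pairs. Mmp9 (gelatinase B), which neutrophils store in granules, had 0.696, 0, 0.0903 and 0 TPM in trogocytic co-cultures, against 0.337, 0, 0 and 0 TPM in non-trogocytic ones. The highest Mmp9 value in each group was that of replicate 1. Neutrophil markers were present at 547 to 999 TPM in sum in trogocytic and at 435 to 1136 TPM in non-trogocytic co-cultures, while Csf3r among them was listed at 0 throughout.

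**Figure D1:**
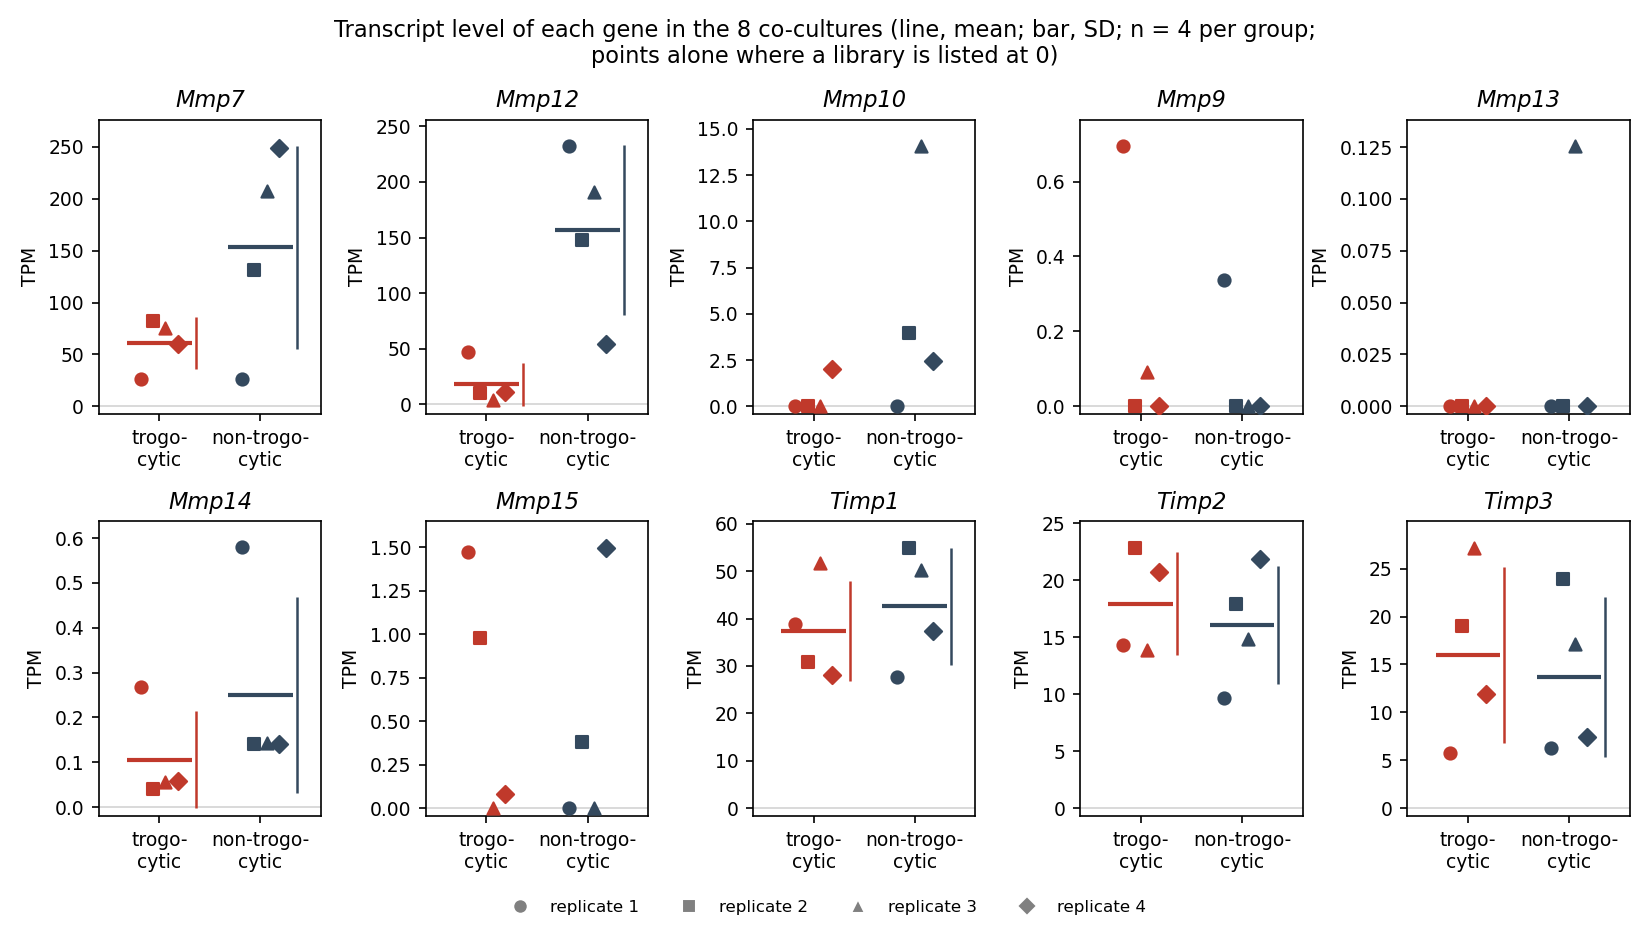
Level of each of the 10 genes in TPM (vertical axes, linear, each with its own range) in trogocytic (left, red) and non-trogocytic (right, blue) co-cultures; each symbol is 1 library, and lines and bars are the mean and SD of 4 libraries, left out where a library was listed at 0. The 4 Mmp12 values of trogocytic co-cultures reach 47.0 TPM and lie below the 4 non-trogocytic values, which start at 54.6 TPM, whereas the 2 groups overlap for the other 9 genes.

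The cluster was unevenly transcribed. Mmp1b, Mmp1a and Mmp20 were listed at 0 in all 8 libraries. Mmp3 (stromelysin-1) was found only in non-trogocytic replicate 3, at 16.6 TPM. That library had the highest Mmp10 level, the highest sum of fibroblast markers and the only hepatocyte markers. The part of hepatocyte and fibroblast content in these values was not tested. Mmp27 had 13.0 and 6.34 TPM in non-trogocytic replicates 1 and 3 and was listed at 0 elsewhere. Mmp8 (neutrophil collagenase) had 64.2, 8.81, 19.8 and 22.8 TPM in trogocytic co-cultures, against 53.0, 1.72, 6.59 and 6.16 TPM in non-trogocytic co-cultures. The lowest trogocytic Mmp8 value was above 3 of the 4 non-trogocytic ones, but the groups overlapped. By limma's moderated test over all genes, the log2 difference of 1.33 (SE 0.86) had a Benjamini-Hochberg adjusted p of 0.9998.

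**Figure D2:**
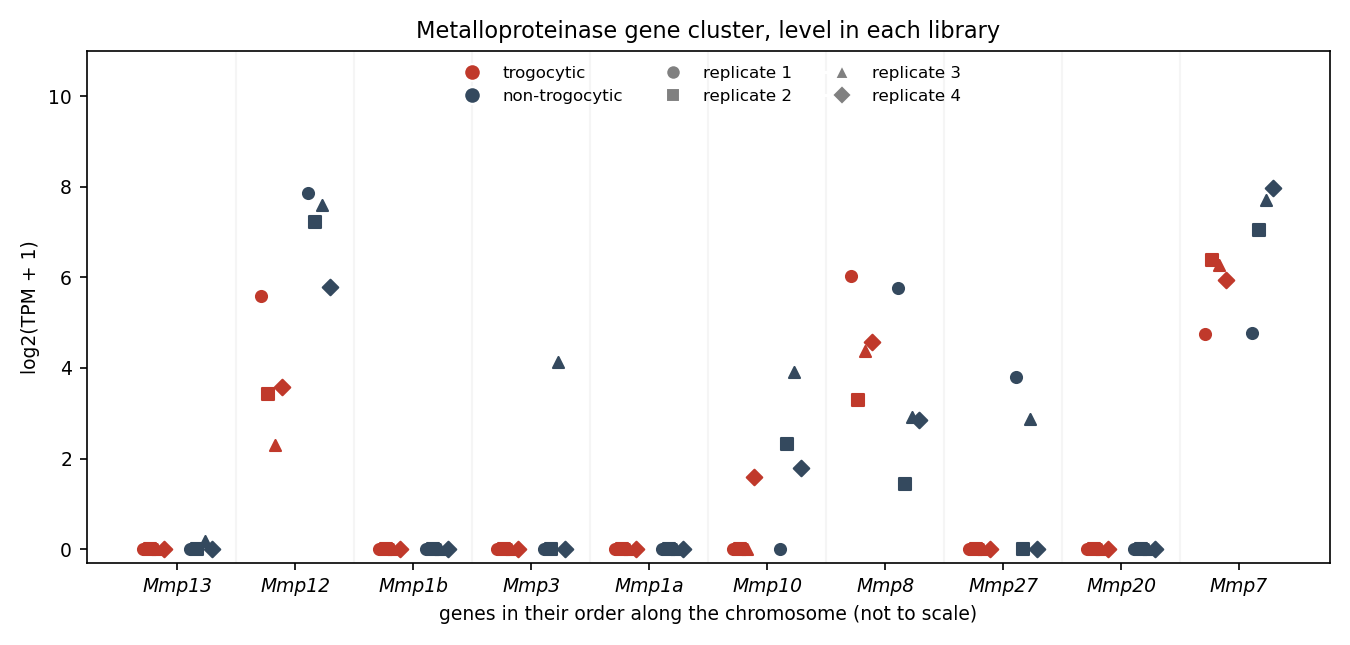
Level in log2(TPM + 1) (vertical axis) of the 10 metalloproteinase genes of the chromosome 9 cluster, in their order along the chromosome (horizontal axis); each point is 1 library, trogocytic left of non-trogocytic at each gene. Only Mmp12, Mmp8 and Mmp7 are above 0 in all 8 libraries, and Mmp1b, Mmp1a and Mmp20 stand at 0 in all 8. In trogocytic co-cultures Mmp8 has a higher mean than Mmp12 (28.9 against 17.9 TPM).

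The membrane-anchored enzymes were low. Mmp14 (MT1-MMP), known for activating the precursor of Mmp2 at the cell surface, had 0.268, 0.0407, 0.0564 and 0.0591 TPM in trogocytic co-cultures, against 0.579, 0.141, 0.143 and 0.140 TPM in non-trogocytic ones. Again replicate 1 was the highest of each group, and the groups overlapped through it. Mmp15 (MT2-MMP) had 1.47, 0.981, 0 and 0.0829 TPM in trogocytic co-cultures, against 0, 0.382, 0 and 1.50 TPM in non-trogocytic ones. High and low values of Mmp15 occurred in both groups. Neither gene reached 1 TPM in 4 libraries, so neither was among the 11433 genes tested.

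The inhibitors differed between the groups by less than the error of the difference. Timp1, a secreted inhibitor that many cells raise on inflammatory stimulation, had 38.9, 30.8, 51.6 and 28.1 TPM in trogocytic co-cultures, against 27.7, 55.0, 50.3 and 37.4 TPM in non-trogocytic ones. Its means were 37.4 ± 10.6 TPM in trogocytic and 42.6 ± 12.4 TPM in non-trogocytic co-cultures (SD, n = 4 each), with a log2 difference of −0.17 (SE 0.29). The lowest and highest of the 8 Timp1 values were both non-trogocytic.

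Timp2, which inhibits metalloproteinases and also bridges Mmp14 to the Mmp2 precursor, had 14.3, 22.9, 13.9 and 20.7 TPM in trogocytic and 9.70, 17.9, 14.8 and 21.9 TPM in non-trogocytic co-cultures. The difference of 0.17 (SE 0.29) on the log2 scale was smaller than its error, and it was −0.04 without non-trogocytic replicate 1. Timp3, the member of the family that binds to the extracellular matrix, had 5.80, 19.0, 27.2 and 11.9 TPM in trogocytic and 6.29, 23.9, 17.2 and 7.41 TPM in non-trogocytic co-cultures. Its log2 difference of 0.21 (SE 0.62) became −0.10 without trogocytic replicate 3 and −0.07 without non-trogocytic replicate 1. Timp3 on chromosome 10 (86300372 to 86349506, plus strand) overlaps Syn3 on the other strand, which averaged 8.79 TPM, so part of either level may belong to the other gene. Timp1 overlaps Syn1, at a mean of only 0.0277 TPM. The fourth inhibitor of the family, Timp4, was listed at 0 in all 8 libraries.

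Ordered by mean level over the 8 libraries, which TPM allows between genes, Mmp7 came first at 107 TPM, then Mmp12 at 87.2, Timp1 at 40.0, Timp2 at 17.0, Timp3 at 14.8 and Mmp10 at 2.82 TPM. Mmp15 followed at 0.552, Mmp14 at 0.178, Mmp9 at 0.140 and Mmp13 at 0.0157 TPM. Timp1 and Timp2 were the only neighbours in this order whose means ± SD did not overlap.

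By group means, that order differed between the groups. In trogocytic co-cultures Mmp7 (61.1 TPM) and Timp1 (37.4 TPM) came first and Mmp12 (17.9 TPM) stood level with Timp2 (17.9 TPM). The Mmp12 mean was raised there by replicate 1 at 47.0 TPM: its median was 10.3 TPM, against 17.5 TPM for Timp2. In non-trogocytic co-cultures the mean of Mmp12 (157 TPM) stood just above that of Mmp7 (153 TPM). Single libraries differed: Mmp12 was above Mmp7 in non-trogocytic replicates 1 and 2 and below it in replicates 3 and 4.

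Summed over the 7 metalloproteinases, transcripts came to 75.3, 92.9, 79.9 and 73.6 TPM in trogocytic co-cultures, against 259, 284, 414 and 307 TPM in non-trogocytic co-cultures. The sum was thus narrow in trogocytic co-cultures (80.4 ± 8.74 TPM) and lay below every non-trogocytic value (316 ± 67.9 TPM; SD, n = 4 each). Without non-trogocytic replicate 3 the non-trogocytic mean was 283 ± 23.9 TPM (SD, n = 3). Mmp7 and Mmp12 together made up 96.5% to 99.8% of it in every library, and the sum is a choice of genes known to stand lower. The 16 listed metalloproteinase genes that are not members summed to 72.3, 15.6, 22.9 and 35.1 TPM in trogocytic and 71.7, 25.4, 39.8 and 14.9 TPM in non-trogocytic co-cultures. Those sums overlapped.

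The 2 enzymes shared that sum unequally. Mmp12 gave 62.4% of it in trogocytic replicate 1 but 10.5%, 4.87% and 14.9% in the other 3 trogocytic libraries, against 89.6%, 52.2%, 46.3% and 17.8% in non-trogocytic libraries. In both groups replicate 1 had the largest share of Mmp12 and the smallest of Mmp7.

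The 3 inhibitors summed to 59.0, 72.7, 92.7 and 60.7 TPM in trogocytic and 43.7, 96.8, 82.3 and 66.7 TPM in non-trogocytic co-cultures. Their means were 71.3 ± 15.5 TPM in trogocytic and 72.4 ± 22.7 TPM in non-trogocytic co-cultures. Transcripts of the 7 metalloproteinases per transcript of these 3 inhibitors were 1.28, 1.28, 0.861 and 1.21 in trogocytic co-cultures, against 5.94, 2.93, 5.03 and 4.61 in non-trogocytic ones. The other 16 listed metalloproteinase genes, Mmp8 among them, are left out of this ratio. The ratio averaged 1.16 ± 0.199 in trogocytic and 4.63 ± 1.26 in non-trogocytic co-cultures (SD, n = 4 each), and the groups did not overlap, with or without non-trogocytic replicate 3. Its genes were chosen with their values known, so nothing is read from that separation. It is a ratio of RNA levels, and enzyme activity was not measured.

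**Figure D3:**
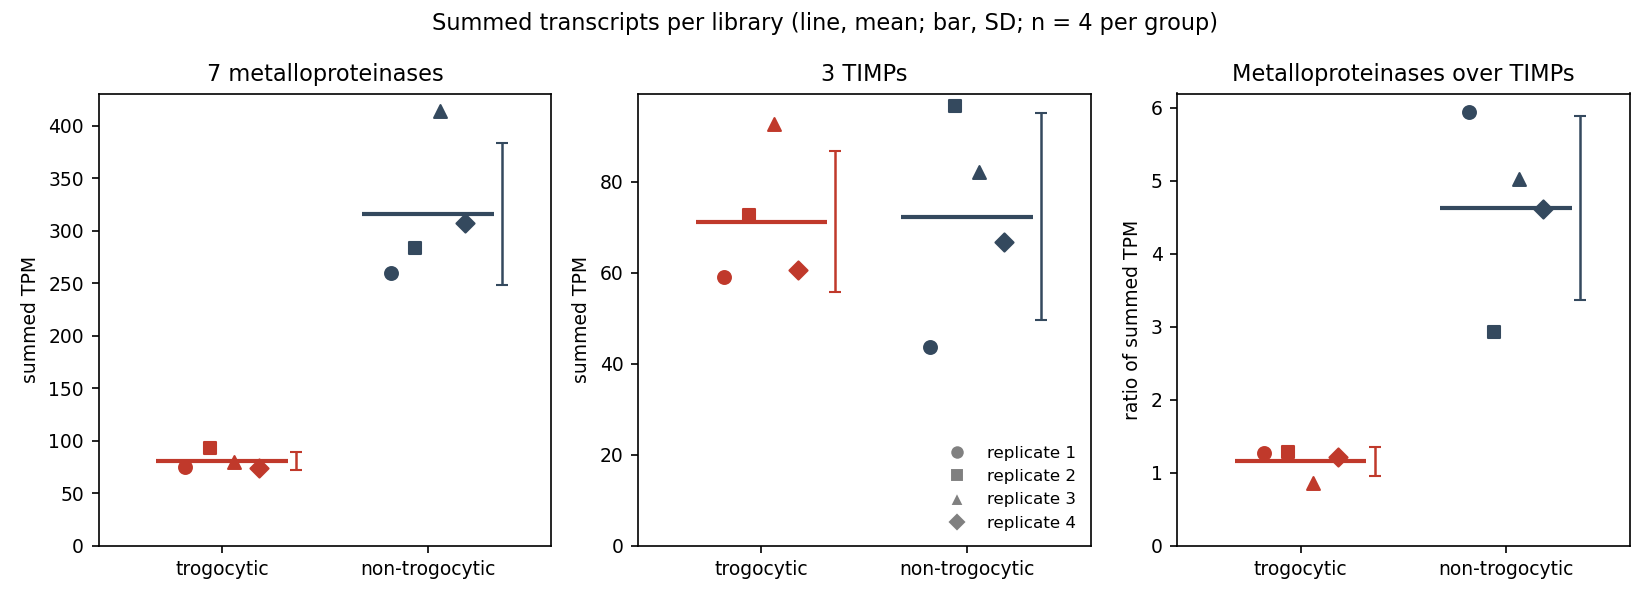
Summed level of the 7 metalloproteinases and of the 3 TIMPs in TPM, and their ratio, in trogocytic (left) and non-trogocytic (right) co-cultures, with 1 symbol per library and the mean and SD of 4 libraries. The metalloproteinase sum is 73.6 to 92.9 TPM in trogocytic and 259 to 414 TPM in non-trogocytic co-cultures, while the TIMP sums overlap.

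Since Mmp12 is known from macrophages, it was set beside their markers. All 18 markers of macrophages and monocytes were found in at least 1 library, and they summed to 7251, 2319, 2134 and 5698 TPM in trogocytic co-cultures, against 17492, 8270, 8577 and 4202 TPM in non-trogocytic ones. These sums overlapped. All 16 markers that were tested had a log2 difference below 0, against 49.3% of all tested genes. None of the 16 was called by limma at an adjusted p below 0.05, and 5 had an unadjusted p below 0.05, against 4.59% of all tested genes. Some other lists leaned the other way: all 11 tested T cell markers (median log2 difference 0.91), 6 of 7 tested neutrophil markers and all 3 tested B cell markers were above 0. Others were mixed: 7 tested colon epithelium markers were above 0 and 4 below (median log2 difference 0.03). Erythroid and platelet markers had 2 on each side. None of these markers was called. Unadjusted p in limma's test was below 0.05 for 2 T cell markers and 1 erythroid and platelet marker. No neutrophil, B cell or epithelial marker had such a p. The neutrophil markers include Mmp8. The part of cell makeup in the Mmp12 level was not tested. Set against that sum, Mmp12 stood at 6.48, 4.20, 1.82 and 1.92 TPM per 1000 TPM of macrophage markers in trogocytic co-cultures, against 13.3, 17.9, 22.3 and 13.0 in non-trogocytic ones. The groups did not overlap in this ratio, at 3.60 ± 2.21 in trogocytic and 16.6 ± 4.40 in non-trogocytic co-cultures (SD, n = 4 each). The log2 difference of this ratio, with nothing added to the values, was −2.38. For Mmp12 itself it was −3.40 with 1 added to TPM and −3.54 with 0.01 added. Because Lyz2 dominates the marker sum and is also made by neutrophils, the ratio was taken again without it, a choice made after the values were seen. It was then 4.05 to 13.8 in trogocytic and 34.9 to 76.0 in non-trogocytic co-cultures. Mmp12 was chosen with its values in the groups known, so nothing is read from the separation of either ratio.

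**Figure D4:**
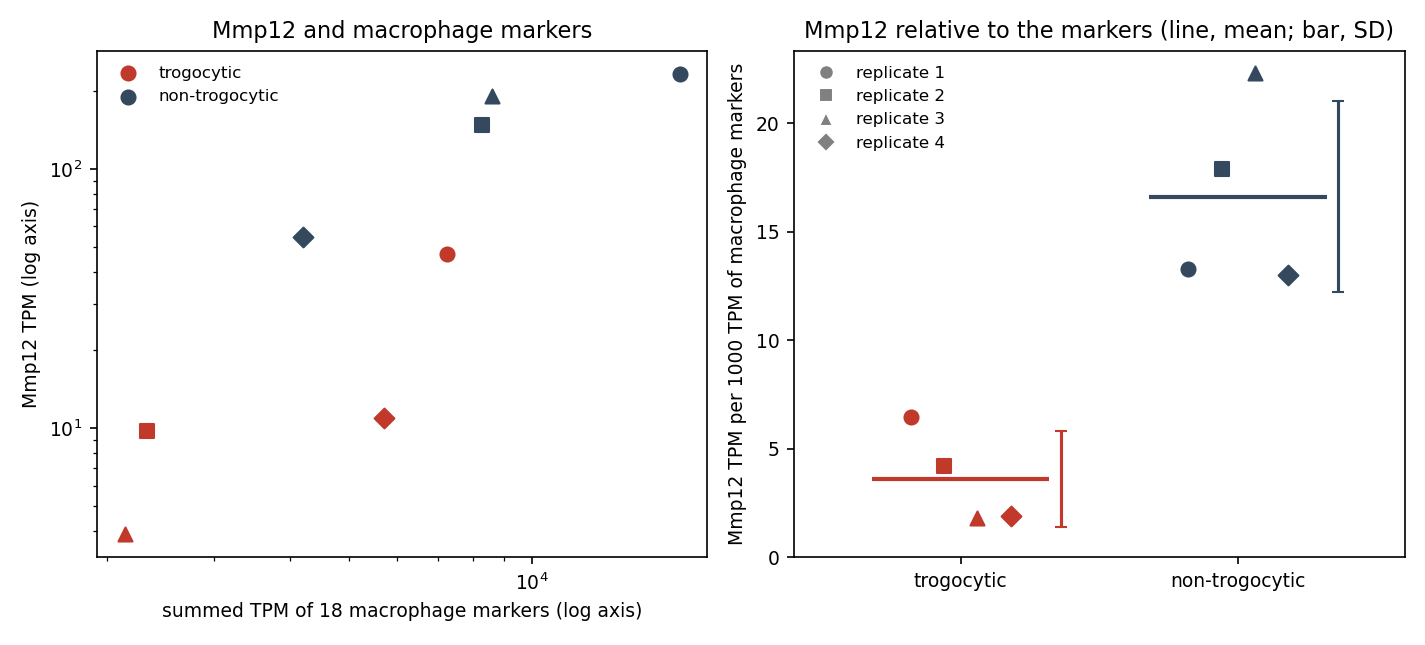
Mmp12 level (vertical axis, TPM, log scale) against the summed level of 18 macrophage and monocyte markers (horizontal axis, TPM, log scale) in the 8 co-cultures (left), and the ratio of the 2 in each group with its mean and SD (right), 1 symbol per library, n = 4 per group. Trogocytic libraries have 1.82 to 6.48 TPM of Mmp12 per 1000 TPM of markers and non-trogocytic ones 13.0 to 22.3.

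Mmp7 was set against the 12 epithelial markers in the same way. It stood at 4.57, 12.6, 13.9 and 8.46 TPM per 1000 TPM of markers in trogocytic co-cultures, against 7.72, 14.1, 47.2 and 37.3 in non-trogocytic ones. The groups overlapped: non-trogocytic replicate 1 lay within the trogocytic range and replicate 2 just above it. Cdx1 among these markers was listed at 0 throughout, and the part of epithelial content in the Mmp7 level was not tested.

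For 3 members, the genes with the most similar profile over the 8 libraries were sought, measured as the root mean square difference of standardised log2 levels. The profile of Mmp12 was closest to that of Prune2 (0.169 SD), Tstd2 (0.261 SD) and the chemokine gene Ccl9 (0.273 SD). Mmp10 was closest to Gm14706 (0.292 SD), to AV064505, the gene that overlaps Mmp7 (0.319 SD), and to Clec16a (0.335 SD). Timp1 was closest to the connexin gene Gjb2 (0.222 SD), to B230377A18Rik (0.247 SD) and to Cxcl5, which encodes a neutrophil-attracting chemokine (0.292 SD). These are the nearest of 11433 profiles over only 8 libraries. Standardised levels hide that some were low. Prune2, Clec16a, Gjb2, B230377A18Rik and Cxcl5 were each listed at 0 in at least 1 library and reached at most 13.2 TPM. Mmp12 was chosen with its values in the groups known, so nothing is read from its nearest profiles.

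Of the 10 members, 6 passed the filter of 1 TPM in at least 4 libraries (Mmp7, Mmp10, Mmp12, Timp1, Timp2 and Timp3). Of the 6, 4 had a log2 difference below 0. Mmp10 passed mainly through its non-trogocytic libraries, and since the members were chosen with these values known, nothing is read from the count.

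Enzymes and inhibitors that act around the members, and the matrix proteins they cut, made up 5 lists of 106 genes. Of these, 33 were tested by limma and none was called in either direction, where 0.0525% of all tested genes (6 genes) were. Unadjusted p was below 0.05 for 5 of the 33, against 4.59% of all tested genes, and the smallest adjusted p was 0.2748. Groups did not overlap for 3 of the 33 (Plau, Serpinb2 and Sparc), against 2.68% of all tested genes. They also did not overlap for 3 of the 73 genes too low to be tested (Col1a1, Col1a2 and Col3a1). The share without overlap among all genes that were not tested but found in a library was 1.23%. That share leaves out genes listed at 0 in all 8 libraries, whereas the 73 include such genes. Only 77 of the 106 were found in a library. The lists were chosen with earlier results of these data known, so nothing is read from these counts. The median log2 difference of the 33 was −0.12, against 0.01 over all tested genes. By list, 3 of 17 other metalloproteinase and TIMP genes were tested, 6 of 13 ADAM genes, 0 of 19 ADAMTS genes, 16 of 27 genes of activation and surface control and 8 of 30 substrate genes.

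Genes that activate the precursors include the plasminogen system, in which urokinase (Plau) makes plasmin. Plau had 9.34, 6.23, 13.1 and 7.33 TPM in trogocytic co-cultures, against 5.65, 2.84, 0 and 0 TPM in non-trogocytic ones. The groups did not overlap, but the log2 difference of 2.11 (SE 0.67) had an adjusted p of 0.9388 in limma's test. Serpinb2, which encodes the urokinase inhibitor PAI-2, had 97.2, 92.5, 102 and 129 TPM in trogocytic and 83.0, 44.1, 31.1 and 23.5 TPM in non-trogocytic co-cultures. Its groups did not overlap either, with a log2 difference of 1.34 (SE 0.36) and an adjusted p of 0.9012 in limma's test. The urokinase receptor gene Plaur averaged 264 ± 115 TPM in trogocytic and 225 ± 138 TPM in non-trogocytic co-cultures. Bsg, whose product basigin is known as an inducer of metalloproteinases, averaged 869 ± 88.1 TPM in trogocytic and 1206 ± 515 TPM in non-trogocytic co-cultures (SD, n = 4 each; adjusted p of 0.9998 in limma's test for both genes).

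Among substrates, Sparc, a matrix-associated glycoprotein of stromal and endothelial cells, had 0, 1.04, 0 and 0 TPM in trogocytic co-cultures, against 8.43, 10.1, 25.7 and 2.77 TPM in non-trogocytic ones. The groups did not overlap, and the log2 difference of −3.08 (SE 0.61) had an adjusted p of 0.2748 in limma's test. Without non-trogocytic replicate 3, its highest library, the difference was −2.62 with an adjusted p of 0.648. The interstitial collagens, the main collagenase substrates, were too low to be tested. Col1a1 was listed at 0 in all 4 trogocytic co-cultures, against 0.937, 1.50, 2.91 and 0.313 TPM in non-trogocytic ones. Col1a2 was likewise listed at 0 in all 4 trogocytic co-cultures, against 2.07, 2.15, 7.40 and 0.221 TPM in non-trogocytic ones. Col3a1 was listed at 0 in all 4 trogocytic co-cultures and had 0.0261 to 1.71 TPM in non-trogocytic ones. These 3 collagens are also among the fibroblast markers, whose sums were highest in non-trogocytic replicates 2 and 3, and the part of fibroblast content in these values and in that of Sparc was not tested. The laminin chains Lamc1 and Lama3, of the basement membrane, were not called. Lamc1 averaged 8.32 ± 4.46 TPM in trogocytic and 7.85 ± 3.60 TPM in non-trogocytic co-cultures, and Lama3 averaged 0.767 ± 0.498 TPM in trogocytic and 1.67 ± 1.22 TPM in non-trogocytic co-cultures (SD, n = 4 each; limma's adjusted p was 0.9998 for both).

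The related ADAM sheddases include Adam10, which TIMPs also inhibit. Adam10 averaged 50.0 ± 19.9 TPM in trogocytic and 66.5 ± 17.5 TPM in non-trogocytic co-cultures, and Adam9 averaged 14.0 ± 4.58 TPM in trogocytic and 16.5 ± 7.50 TPM in non-trogocytic co-cultures (SD, n = 4 each). Adam22, which lacks protease activity, had a median of 1.47 TPM in trogocytic and 0.600 TPM in non-trogocytic co-cultures. Mmp11 (stromelysin-3) averaged 4.96 ± 3.53 TPM in trogocytic and 8.58 ± 4.97 TPM in non-trogocytic co-cultures, and it overlaps Chchd10 on the other strand, which averaged 60.5 TPM. Limma's adjusted p was 0.9998 for each of these 4 genes.

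**Figure D5:**
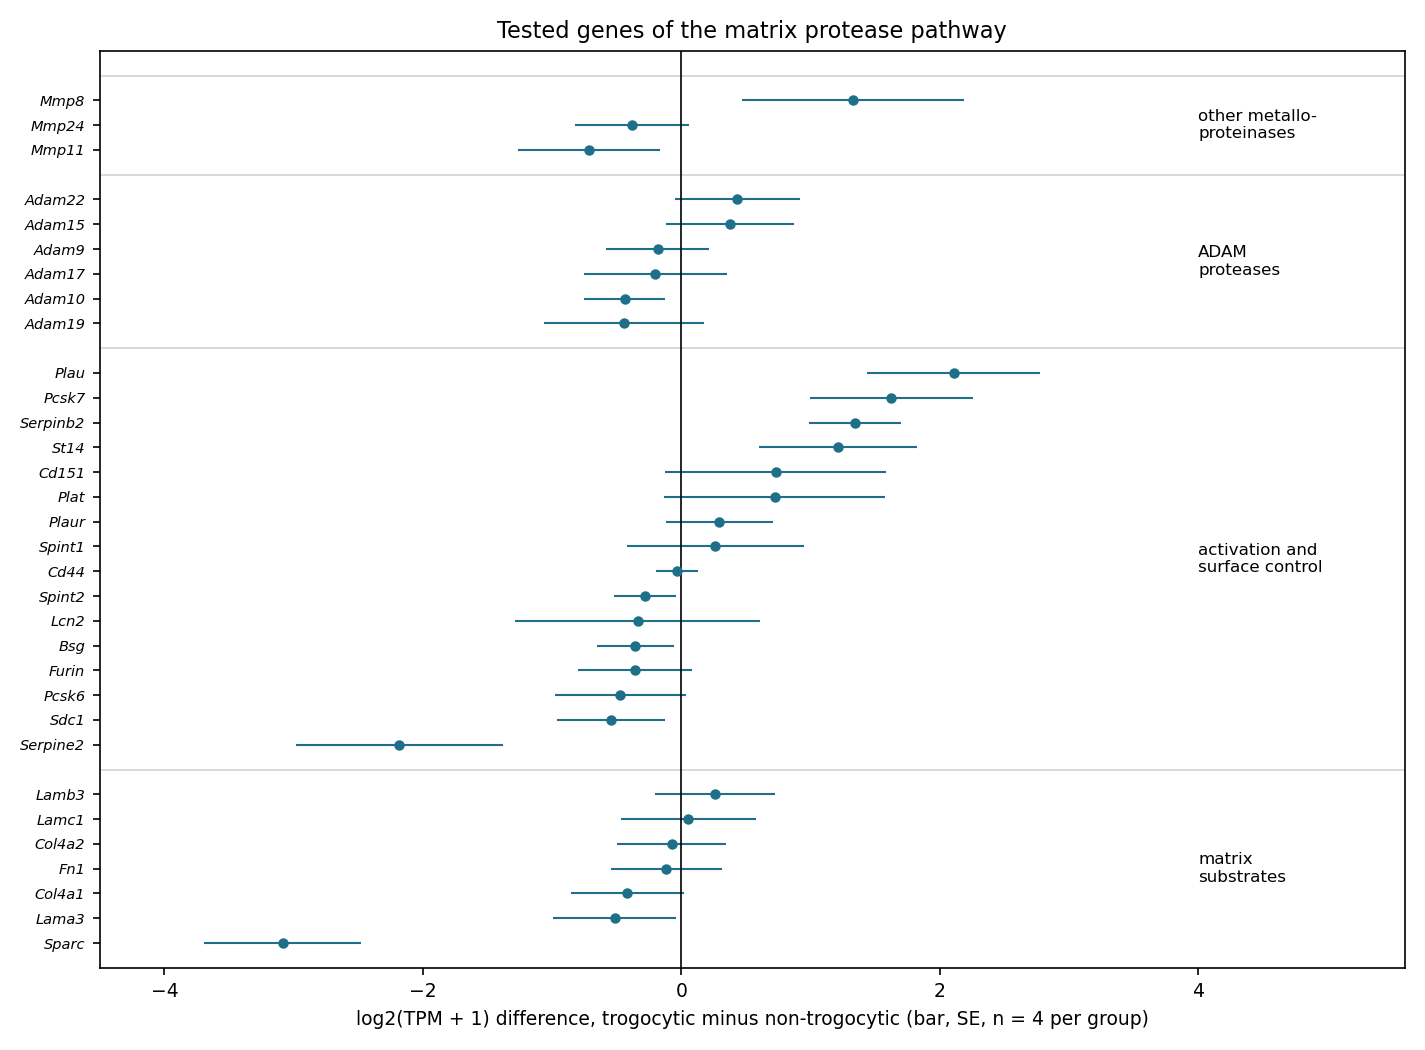
Log2 difference of TPM + 1, trogocytic minus non-trogocytic, with its standard error, for 32 of the 33 tested genes, from 4 pathway lists (no gene of the ADAMTS list was tested); values above 0 are higher in trogocytic co-cultures. Plau and Serpinb2 lie at 2.11 and 1.34 and Sparc at −3.08, and none of the 33 was called at an adjusted p below 0.05.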

How the data were processed

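Polyadenylated RNA of 8 co-cultures was sequenced as 100 bp paired-end reads from a low-input kit, per the labels' protocols. HISAT2, StringTie 1.3.3, DESeq version 2, GRCm38 and mm10 are named in the submitters' processing notes; the annotation release and the strand setting are not stated in the sources used here. Per the file headers, each deposited table holds coverage (mean read depth), FPKM and TPM per gene. FPKM was used as an alternative, and deposited coverage divided by FPKM gave the aligned bases per library, or a number of read pairs at 200 bases each. Read pairs behind a level were computed from that depth and the transcript's length, so they are estimates.

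Rows with the symbol of a member were taken, and TPM was summed per gene ID. Gene coordinates are those of the files, and 49035 IDs match GENCODE M21 of GRCm38 in version. Genes at 1 TPM or more in at least 4 libraries (11433) were tested with limma 3.58.1 (R 4.3.3) on log2(TPM + 1), with a mean-variance trend, two-sided, with Benjamini-Hochberg adjustment over all of them. A fold change on this scale understates the change of low genes. The script was tested on simulated data.

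The members and lists were chosen with earlier results of these data known. Besides the members, the genes named were, per pathway list, the 2 highest by mean level and the 2 lowest by p, and for Mmp12, Mmp10 and Timp1 the 3 most similar profiles; Mmp3, Mmp27, Timp4, the interstitial collagens and the other cluster genes were named outside that rule, after their values were seen, and 1 gene that the rule picks is not reported here. Promoter sequences are from RefSeq (GRCm38.p6) and matched 9 of the 10 members, all except Mmp9. Alternatives covered the pseudocount, the filter, the scaling, the unit, the trend, the replicate block and leaving out each library.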

Additional observations from a re-analysis of the deposited data

Results flagged for a closer look

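In groups of 4 libraries, a value was singled out where its gap to the nearest other library exceeded Dixon's 95% critical share of the group's range. This held for 13 of 76 groups of values examined. In 6 of the 13 the other 3 libraries were listed at 0, so that any value above 0 was singled out. Chance singles out about 1 in 20 groups where values are independent and normally distributed. That was not checked for these TPM values, sums and ratios, so the rate to set beside the other 7 is not known. Among the members, Mmp12 had 47.0 TPM in trogocytic replicate 1, Mmp10 had 2.04 TPM in trogocytic replicate 4 and Mmp13 had 0.126 TPM in non-trogocytic replicate 3. Replicate 1 stood out in both groups for the genes Mmp9, with 0.696 TPM in the trogocytic and 0.337 TPM in the non-trogocytic library, and Mmp14, with 0.268 TPM in the trogocytic and 0.579 TPM in the non-trogocytic library. The ratio of the 7 metalloproteinases to the 3 TIMPs was low in trogocytic replicate 3, at 0.861. Outside the members, Sparc had 1.04 TPM in trogocytic replicate 2, Mmp8 had 53.0 TPM in non-trogocytic replicate 1 and Mmp3 had 16.6 TPM in non-trogocytic replicate 3. Summed endothelial markers reached 20.9 TPM in non-trogocytic replicate 2, and summed hepatocyte markers 159.7 TPM in non-trogocytic replicate 3.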

How the results depend on the processing

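Over all genes, 6 were called. The count was 2 with a pseudocount of 0.01, 2 with median-of-ratios scaling, 1 without the mean-variance trend, 1 with no filter, and 0 to 3 when 1 library was left out; it was 4 or 6 with FPKM, a pseudocount of 0.1 or a filter of 5 TPM. The causes were not tested. Replicate numbers are shared between the groups, and the labels do not say whether they pair the samples. Deviations from the group means correlated at 0.24, 0.01, 0.06 and −0.09 for numbers 1 to 4, which cannot exclude a pairing. The 2 libraries numbered 1 were each other's closest match across the groups. With the replicate block the count was 0, also with median-of-ratios scaling. None of the 33 pathway genes was called under any alternative run. The log2 difference of Mmp12 stayed between −4.02 and −2.92 and that of Mmp7 between −1.74 and −0.67. That of Mmp10 lay between −4.84 (pseudocount of 0.01) and −0.97. Signs turned when 1 library was left out: Timp2 (−0.04) and Timp3 (−0.07) without non-trogocytic replicate 1, Timp3 (−0.10) without trogocytic replicate 3, and Mmp9 (−0.06) and Mmp15 (−0.08) without trogocytic replicate 1. Added after seeing the data, the log2 ratio of Mmp12 to macrophage markers was −2.79 without Lyz2 and −2.89 over Cd68 alone, against −2.38. Sparc, Plau and Serpinb2, examined under the same alternatives after seeing the data, kept their signs and were called under none in which they were tested. Mmp9, Mmp13, Mmp14 and Mmp15 did not exceed 1.50 TPM in any library, so depth limits what can be said of them.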
